A study of Mus musculus with 12 samples.

Results

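Of the 31253 gene symbols listed in each of 12 mouse liver RNA-seq libraries, 7 are described here: Moxd1, Fabp5, Cxcl14, Btg3, Cobl, Fam124a and Cep85. They were picked because their level rose after the liver carcinogen diethylnitrosamine (DEN) mainly in CUGBP1 s302a knock-in mice, with no numerical threshold, so their DEN and genotype differences are descriptions and carry no test. All 7 were among the 12120 symbols that passed a filter on low values (a level above 1 in at least 3 libraries), a filter that the high group alone can satisfy. The libraries fell into 4 groups of n = 3: untreated wild type (WT Ctrl), wild type after DEN (WT Den), untreated knock-in (s302a Ctrl) and knock-in after DEN (s302a Den). All were livers of male C57BL6 mice. The treated mice were given DEN by injection at 3 weeks of age and 50 µg per g of body weight, and the untreated mice received nothing. Livers were taken 30 to 38 weeks after that, at an age of 33 to 41 weeks. The knock-in mice carry an allele of CUGBP1 that is named for a serine replaced by alanine, and the labels do not say whether the mice were homozygous or whether the wild-type mice were littermates. The labels do not state that each library came from a separate animal, so tests measure the spread between these samples only. Levels are TPM, the relative transcript abundance of a library corrected for transcript length, as deposited.

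CUGBP1, encoded by Celf1, is an RNA-binding protein that recognises GU-rich sequence and acts on splicing, mRNA decay and translation. DEN is converted by cytochrome P450 enzymes of the hepatocyte into a DNA-alkylating agent, and a single dose to young male mice starts liver tumours that grow out over months. The 7 genes belong to no common pathway: they encode a secreted chemokine (Cxcl14), a fatty acid carrier (Fabp5), a relative of the copper monooxygenases (Moxd1), an antiproliferative adaptor (Btg3), an actin nucleator (Cobl), a centrosomal protein (Cep85) and a protein of little-known function (Fam124a).

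The s302a Den replicate 3 library stood apart and is shown separately throughout. Its Spearman correlations with the other libraries across symbols were 0.877 to 0.913, against 0.937 to 0.980 among the other 11. It listed 13083 symbols above 1 TPM, against 10839 to 11653, and 10539 of the 12120 tested symbols (87.0%) lay higher in it than in both other s302a Den replicates. No symbol was listed below 1 TPM, and 17258 symbols stood at 1 in all 12 libraries. A level of 1 is therefore read as a floor, at or below 1 TPM, rather than as a measured value. Whether a symbol at the floor was detected is not known. The 7 hepatocyte markers summed to 39468 to 86178 TPM in the 9 libraries outside s302a Den and to 51771 to 58302 TPM in s302a Den, so the tissue label held in every library. TPM cannot show a changed codon, so the knock-in label was not checked here.

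The promoters of 4 of the genes are shown because they differ in what the genes did in s302a Den replicate 3: Moxd1 and Cxcl14 stood at their untreated level there, whereas Btg3 and Fam124a stood high. Each sequence is the RefSeq promoter of build GRCm38.p6, from 250 bases before to 50 bases after the annotated start, and both strands were searched for motifs. Capitals mark matches to the GC box, GGGCGG. They also mark matches to the box named after its letters, CCAAT. RefSeq promoters of this length matched 6 of the 7 genes with 8 starts in all, and none matched Fabp5. The Btg3 window is the downstream of 2.
Moxd1 (chr10:24223267-24223566, plus strand): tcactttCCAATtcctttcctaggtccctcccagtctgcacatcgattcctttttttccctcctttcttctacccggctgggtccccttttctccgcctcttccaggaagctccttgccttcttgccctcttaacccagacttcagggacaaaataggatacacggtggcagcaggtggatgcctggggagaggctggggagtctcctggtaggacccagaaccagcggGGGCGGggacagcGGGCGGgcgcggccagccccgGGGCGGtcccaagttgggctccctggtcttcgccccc
Cxcl14 (chr13:56296502-56296801, minus strand): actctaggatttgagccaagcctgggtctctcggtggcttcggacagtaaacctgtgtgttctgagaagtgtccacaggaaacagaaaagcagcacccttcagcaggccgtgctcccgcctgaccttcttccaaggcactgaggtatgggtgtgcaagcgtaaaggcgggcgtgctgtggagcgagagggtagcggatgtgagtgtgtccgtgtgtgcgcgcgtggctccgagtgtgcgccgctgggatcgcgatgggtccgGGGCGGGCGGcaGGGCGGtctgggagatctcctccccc
Btg3 (chr16:78376761-78377060, minus strand): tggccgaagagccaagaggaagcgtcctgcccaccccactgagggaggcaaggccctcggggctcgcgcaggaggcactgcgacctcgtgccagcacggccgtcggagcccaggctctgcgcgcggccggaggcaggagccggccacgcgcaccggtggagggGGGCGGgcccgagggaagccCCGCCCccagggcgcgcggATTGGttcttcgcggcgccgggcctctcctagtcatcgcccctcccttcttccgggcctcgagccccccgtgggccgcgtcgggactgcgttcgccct
Fam124a (chr14:62555487-62555786, plus strand): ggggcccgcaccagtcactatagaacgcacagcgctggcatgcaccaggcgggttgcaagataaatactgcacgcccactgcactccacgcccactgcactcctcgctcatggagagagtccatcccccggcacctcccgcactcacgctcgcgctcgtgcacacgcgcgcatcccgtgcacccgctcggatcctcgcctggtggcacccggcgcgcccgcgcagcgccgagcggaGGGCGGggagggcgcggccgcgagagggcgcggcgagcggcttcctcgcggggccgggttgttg
All 4 are rich in G and C, at 61.7% for Moxd1, 62.7% for Cxcl14, 75.7% for Btg3 and 72.0% for Fam124a, against a median of 52.7% over 32851 promoters. The CG dinucleotide occurred 13 times in the Moxd1 window, 22 times in Cxcl14, 37 times in Btg3 and 40 times in Fam124a, against a median of 7. The upstream Btg3 window, not shown, held 57.7% G and C and 9 CG dinucleotides. Both values lay below those of Moxd1 and Cxcl14, so the order of the genes depends on which Btg3 start is used. A GC box lay in 6 of the 8 windows, against 35.7% of all promoters. The upstream Btg3 window and 1 of the 2 Cobl windows held none, so each of the 6 genes had a match in at least 1 window. No share of genes with a match in any window was computed as a background. In Cxcl14, GGGCGGGCGG holds a pair of overlapping matches. A CCAAT box lay in 4 of the 8 windows, those of Btg3, Cep85 and Moxd1, against 37.4% of all promoters. No window held TATAAA (the TATA box, in 13.6% of all promoters), CACGTG (an E-box, 7.15%) or TGANTCA (an AP-1 site, 7.81%). None held TGACNNNGC (the core of the antioxidant response element, 12.4%), TGACGTCA (the cAMP response element, 1.79%) or TTANGTAA (the D-box, 2.32%).

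In every gene the mean TPM of s302a Den was the highest of the 4 group means, and the genes differed in how many of the 3 s302a Den libraries carried it. Moxd1, Fabp5 and Cxcl14 were high in replicates 1 and 2 and near their untreated level in replicate 3. Btg3, Cobl and Fam124a were high in all 3 replicates, above each of the other 9 libraries. Cep85 was also high in all 3, but WT Den replicate 3 lay within their range. Liver is a mixed tissue, and in bulk RNA fewer or more cells of a type cannot be told apart from less or more RNA per cell. Replicate 3 also stood apart in markers of other cells, given after the member values, and their part in these levels was not tested.

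**Figure D1:**
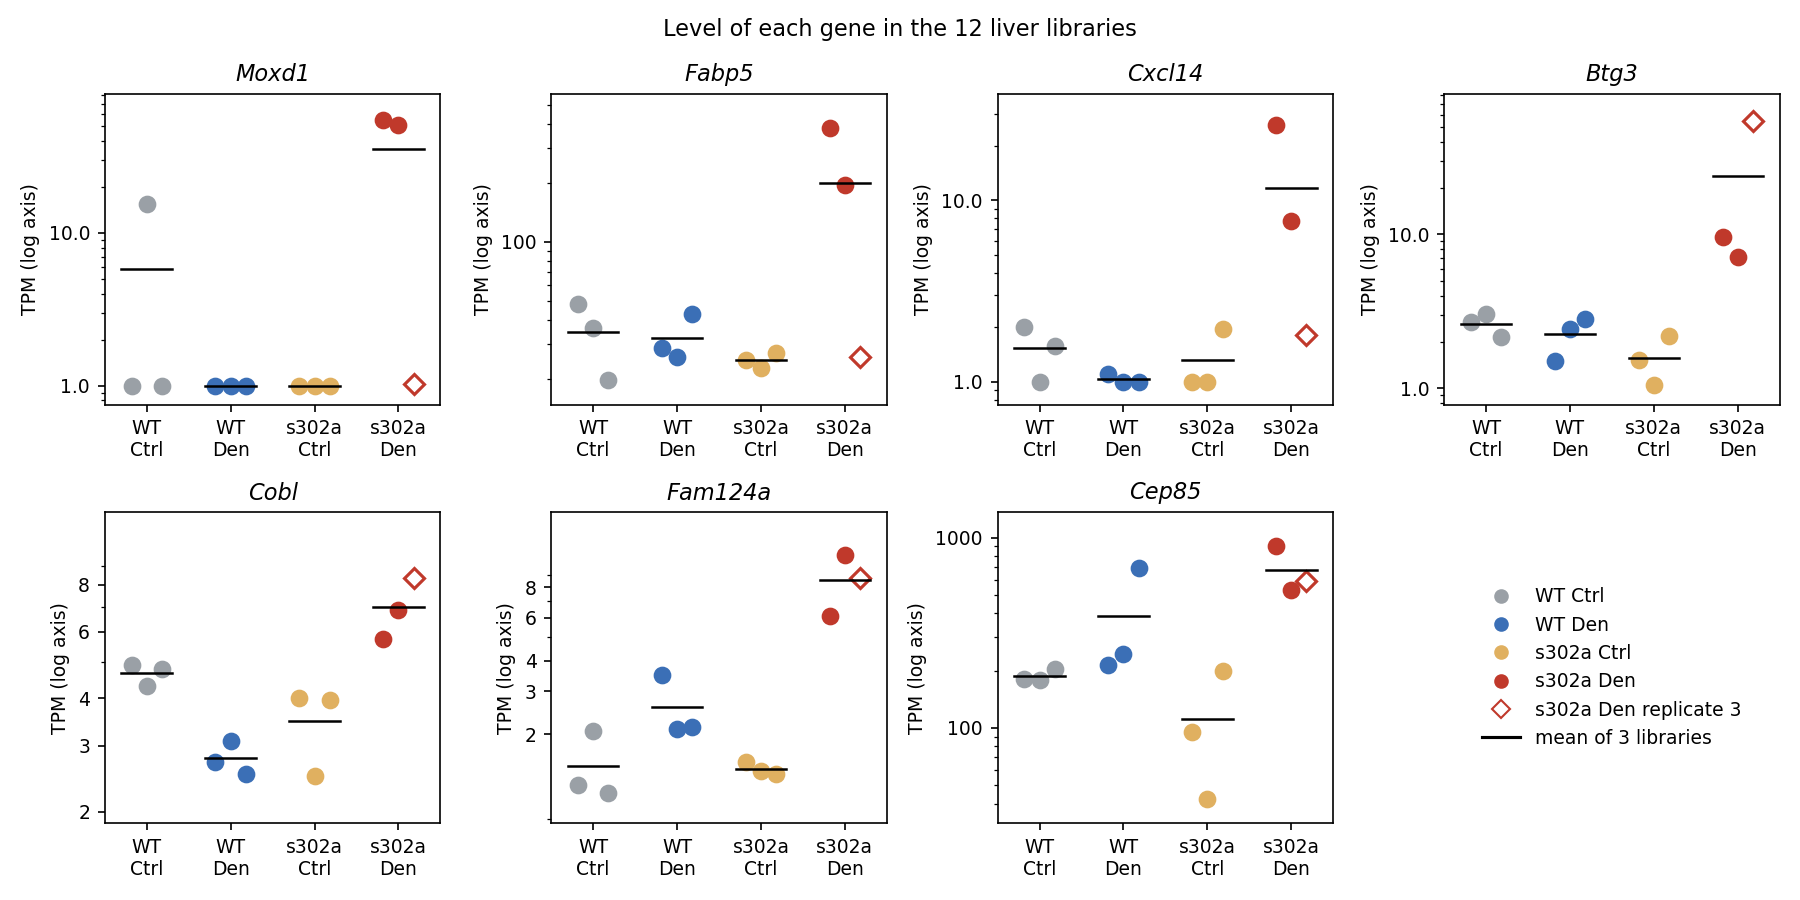
Level of the 7 genes in each of the 12 libraries, as TPM on a log axis, by group; points are libraries, horizontal lines are means of 3 libraries and the open diamond is s302a Den replicate 3. The diamond sits among the untreated libraries for Moxd1, Fabp5 and Cxcl14 and at or above the other s302a Den libraries' lower value for Btg3, Cobl, Fam124a and Cep85.

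Moxd1 lies at chr10:24223517-24302790 on the plus strand (GENCODE vM21, GRCm38, as for all genes below) and encodes a protein related to dopamine beta-hydroxylase, the copper enzyme that makes noradrenaline. Its level was 54.6, 50.8 and 1.03 TPM in s302a Den replicates 1 to 3. It was listed at 1 in all 3 s302a Ctrl and all 3 WT Den libraries. In WT Ctrl it was listed at 1, 15.5 and 1 TPM. Moxd1 thus stood above the floor in 4 of 12 libraries. Of those, 1 was an untreated wild-type liver, whose level lay under the higher s302a Den pair and above replicate 3. The mean of s302a Den was 35.5 ± 29.9 TPM (SD, n = 3), and without replicate 3 it was 52.7 TPM. No fold is given against s302a Ctrl or WT Den, whose libraries all stood at the floor. On the log2(TPM + 1) scale the wild-type DEN difference of -1.01 rested on WT Ctrl replicate 2, since without it all remaining wild-type libraries stood at 1.

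Fabp5, at chr3:10012548-10016607 on the plus strand, encodes the epidermal fatty acid-binding protein, which carries long-chain fatty acids and retinoic acid and is minor in hepatocytes beside Fabp1. It was the member with the highest level in an untreated liver after Cep85, at 48.1, 36.1 and 19.7 TPM in WT Ctrl and 25.0, 22.6 and 27.0 TPM in s302a Ctrl. WT Den stood at 28.5, 25.9 and 42.6 TPM. In s302a Den it reached 380 and 193 TPM in replicates 1 and 2 and 25.8 TPM in replicate 3. Replicates 1 and 2 lay above all other libraries, and replicate 3 lay inside the ranges of both untreated groups and just under the lowest WT Den library. The s302a Den mean was 8.03 times the s302a Ctrl mean, 11.5 times without replicate 3 and 4.41 times without replicate 1, whereas the WT Den mean was 0.934 times the WT Ctrl mean. The annotation holds a processed pseudogene copy, Fabp5l2, and whether reads shared between the copies entered the Fabp5 level was not tested.

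Cxcl14, at chr13:56288643-56296551 on the minus strand, encodes a CXC chemokine made mainly by epithelia and fibroblasts. It stood near the floor outside s302a Den, at 2.02, 1 and 1.58 TPM in WT Ctrl, 1.11, 1 and 1 TPM in WT Den and 1, 1 and 1.96 TPM in s302a Ctrl. In s302a Den its levels were 25.9, 7.66 and 1.81 TPM. Replicates 1 and 2 lay above all other libraries, and replicate 3 did not. Since 2 of the 3 s302a Ctrl libraries stood at the floor, the s302a Den mean was at least 8.94 times the s302a Ctrl mean, at least 12.7 times without replicate 3 and at least 3.59 times without replicate 1. Replicate 1 carried much of it: the log2 difference after DEN in s302a fell from 1.93 to 1.11 when replicate 1 was left out.

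Btg3, at chr16:78332637-78377192 on the minus strand, encodes an antiproliferative member of the BTG/TOB family, whose proteins recruit the CCR4-NOT deadenylase to mRNA. Its level was 9.59, 7.17 and 54.9 TPM in s302a Den. It stood at 2.69, 3.03 and 2.17 TPM in WT Ctrl, 1.51, 2.42 and 2.82 TPM in WT Den and 1.53, 1.04 and 2.18 TPM in s302a Ctrl. All 3 s302a Den libraries lay above all 9 others, and the replicate low for Moxd1, Fabp5 and Cxcl14 was here the highest, at 6.55 times the mean of replicates 1 and 2. The s302a Den mean was 15.1 times the s302a Ctrl mean, and 5.29 times without replicate 3.

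Cobl, at chr11:12236608-12464960 on the minus strand, encodes Cordon-bleu, which nucleates unbranched actin filaments. It was 5.76, 6.87 and 8.32 TPM in s302a Den and 3.998, 2.49 and 3.97 TPM in s302a Ctrl. It was 4.91, 4.31 and 4.80 TPM in WT Ctrl and 2.71, 3.09 and 2.53 TPM in WT Den. Treated and untreated libraries did not overlap in either genotype, and Cobl was the only one of the 7 genes for which they did so in opposite directions: the s302a Den mean was 2.00 times the s302a Ctrl mean, and the WT Den mean was 0.594 times the WT Ctrl mean.

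Fam124a, at chr14:62555737-62608486 on the plus strand, encodes a protein of little-known function. Its level was 6.12, 10.9 and 8.73 TPM in s302a Den. In WT Den it was 3.48, 2.09 and 2.15 TPM, above all 3 WT Ctrl libraries at 1.24, 2.06 and 1.15 TPM. In s302a Ctrl it was 1.54, 1.41 and 1.38 TPM. Both genotypes were thus higher after DEN without overlap, by 5.95 times in s302a and 1.74 times in wild type. This gene changed least with replicate 3, with 5.90 times in s302a without it. Its relative Fam124b was listed at 1 in all libraries.

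Cep85, at chr4:134129858-134187112 on the minus strand, encodes a centrosomal protein that takes part in centriole duplication and restrains the kinase Nek2. Its levels were 908, 532 and 591 TPM in s302a Den and 95.5, 42.1 and 198 TPM in s302a Ctrl. In WT Den it was 215, 245 and 695 TPM, and in WT Ctrl 180, 179 and 203 TPM. DEN-treated libraries lay above untreated ones in both genotypes, with the s302a Den mean at 6.05 times s302a Ctrl and the WT Den mean at 2.06 times WT Ctrl, and WT Den replicate 3 lay between the s302a Den libraries. Each ratio moved with 1 library: without WT Den replicate 3 the wild-type one was 1.23, and without s302a Ctrl replicate 3 the s302a one was 9.84. On the TPM scale, which corrects for length, Cep85 ran from 42.1 to 908, whereas none of the 18 other centrosome genes listed further on passed 14.9 TPM in any library. A snoRNA gene of 88 bases, Gm27619, lies inside Cep85 on the same strand at chr4:134167808-134167895. Which transcripts were summed under the symbol is not given in the sources used here, and the part of the snoRNA in the Cep85 level was not tested.

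In the order of group means, most neighbouring groups below s302a Den overlapped. For Moxd1, Fabp5 and Cxcl14 all neighbours in the order overlapped, s302a Den included, through replicate 3. For Btg3 the step from WT Ctrl up to s302a Den was the only one without overlap. Cobl ran from WT Den through s302a Ctrl and WT Ctrl to s302a Den, with no overlap at the last 2 steps. Fam124a ran from s302a Ctrl through WT Ctrl and WT Den to s302a Den, again with no overlap at the last 2 steps. Cep85 ran in the same order of groups as Fam124a, and only its step from WT Ctrl to WT Den was free of overlap.

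As a background to these counts, 1.58% of the 12120 tested genes had all 3 s302a Den libraries above the other 9, as did 3 of the 7 members. Replicates 1 and 2 both lay above those 9 libraries in 1.99% of tested genes and in 6 members, all but Cep85. They lay above all 10 other libraries, replicate 3 included, in 0.553% of tested genes and in 3 members. The s302a Den libraries lay above s302a Ctrl without overlap in 15.8% of tested genes and in 5 members, and WT Den above WT Ctrl in 21.7% and in 2 members, Fam124a and Cep85. WT Den lay below WT Ctrl in 3.21% and in 1 member, Cobl. The members were picked on these levels, so nothing is read from their counts.

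The size of the DEN difference was then set beside its standard error from 1 linear model of the 4 groups, fitted to log2(TPM + 1) over all tested genes with limma. In s302a the difference ranged from 0.84 ± 0.22 (SE) for Cobl to 3.17 ± 1.08 for Moxd1, with a median of 2.28 over the 7 genes against 0.27 over all tested genes. Median-of-ratios scaling brought the median of all tested genes to 0.01 and that of the members to 1.98, with all 7 still above 0. The standard errors were widest for Moxd1 and Fabp5 (2.28 ± 0.71), both low in replicate 3, and Fam124a had a difference of 1.94 ± 0.24. In wild type the differences ranged from -1.01 to 0.82 with 2 of 7 above 0, and the all-gene median was 0.13. The wild-type difference of Fabp5 turned from -0.04 to 0.24 without WT Ctrl replicate 1. The difference between the genotypes' DEN differences ranged from 1.42 (Fam124a) to 4.19 (Moxd1). Without replicate 3 the s302a difference of Moxd1 was 4.75, that of Fabp5 3.40 and that of Cxcl14 2.74, while that of Btg3 dropped to 1.87 and those of Cobl (0.72), Fam124a (1.91) and Cep85 (2.89) moved little.

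**Figure D2:**
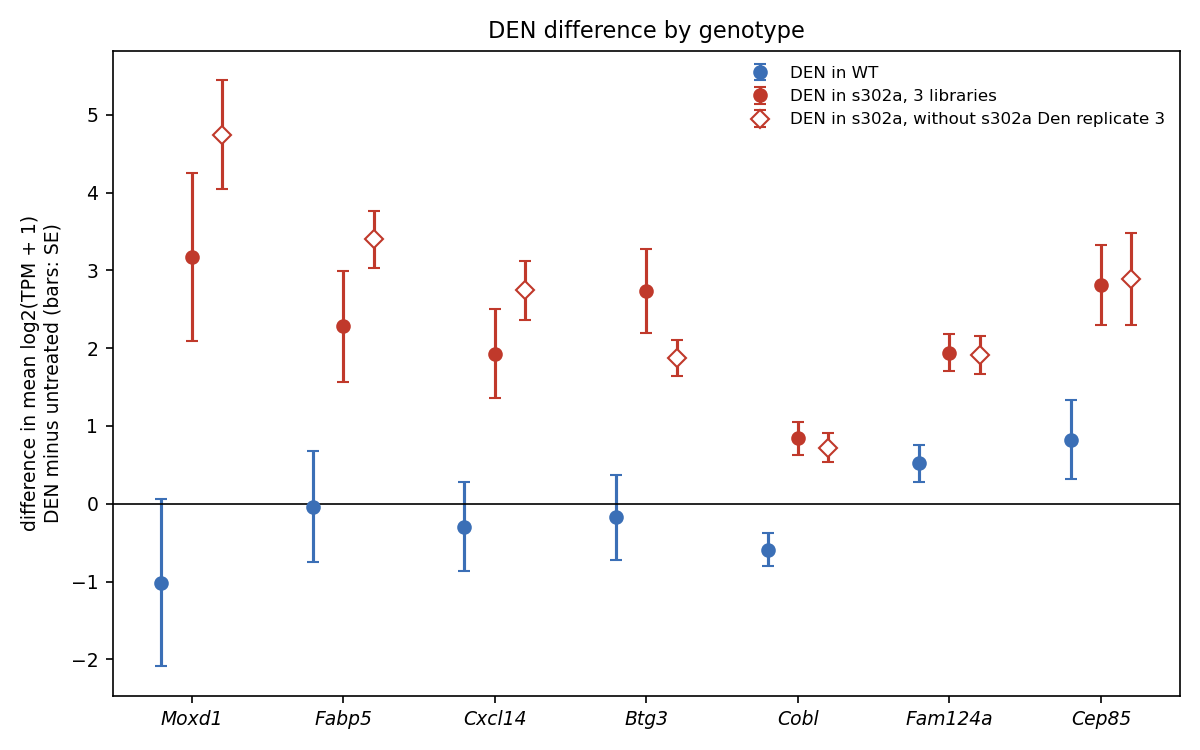
Difference in mean log2(TPM + 1) between DEN-treated and untreated libraries for each gene; blue circles are wild type, red circles are s302a with all 3 Den libraries, open diamonds are s302a without Den replicate 3, and bars are standard errors from the limma fit. Leaving out replicate 3 raises Moxd1, Fabp5 and Cxcl14, lowers Btg3 and leaves Fam124a at 1.91 against 1.94.

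With all 12 libraries, 3 members were called higher after DEN in s302a at a Benjamini-Hochberg adjusted p below 0.05 (Btg3, Fam124a and Cep85), beside 0.421% of tested genes called higher. Without replicate 3 it was 6 members, all but Cobl, beside 1.22%, and it was 1 to 3 members when any other single library was left out, beside 0.0912% (without s302a Ctrl replicate 1) to 2.49% (without s302a Den replicate 2). It was 1 member without the low-value filter, beside 0.171%, and 0 in a fit to the 6 libraries of that contrast alone, beside 0.0789%. In wild type it was 0 members, beside 0.116% with all libraries and 1.93% without replicate 3. For the difference between genotypes in the DEN response it was 0 members beside 0.0248% with all libraries, and 5 members beside 0.168% without replicate 3. The rule used these contrasts, so these counts are given as a description of the fit.

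The genotype comparisons share the same libraries. In untreated livers all 7 members stood below the wild-type mean, from -1.01 (Moxd1) to -0.01 (Fam124a) on the log2 scale, none was called, and 0.0165% of tested genes were called higher (0.0168% without replicate 3). The Moxd1 value rested on WT Ctrl replicate 2 and was 0 without it. Fam124a stood slightly above 0 there under median-of-ratios scaling (0.04), under quantile normalization (0.06), at a pseudocount of 0.1 and in some fits with 1 library left out, at most 0.15 without WT Ctrl replicate 2. Cxcl14 stood at 0.0041 without WT Ctrl replicate 1. After DEN all 7 stood higher in the knock-in, from 0.99 (Cep85) to 3.17 (Moxd1). Of these Fam124a alone was called with all libraries, beside 0.107% of tested genes, and 6 without replicate 3, all but Cep85, beside 0.589%.

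Markers of other cells were summed in each library, without scaling between libraries. A higher level in s302a Den replicate 3 was common: 87.0% of tested symbols lay higher in it than in both other replicates of its group. Median-of-ratios scaling would divide the levels of replicate 3 by 1.69 and those of no other library by more than 1.18. How much of the marker sums in replicate 3 goes with this library-wide shift was not tested. The list highest in s302a Den replicate 3 relative to the other libraries held liver tumour and fetal genes (Afp, Gpc3, Ly6d, Igf2 and H19), which summed to 513 TPM against 8.26 and 7.29 TPM in replicates 1 and 2 and 5 to 27.7 TPM in the 9 libraries outside the group. Igf2 and H19 were at 1 in all libraries. Cycling cell markers summed to 37.9 TPM in replicate 3, against 5 and 5.05 TPM in the other replicates and 5 to 6.63 TPM outside. All 9 stellate cell and fibroblast markers were highest in replicate 3, with a sum of 163 TPM against 65.0 and 31.4 TPM and 39.9 to 81.4 TPM outside. Macrophage markers summed to 182 TPM there, against 108 and 32.9 TPM and 40.4 to 93.7 TPM outside, and lymphocyte markers to 19.3 TPM, against 6.48 and 6 TPM and 6 to 9.11 TPM outside. Cd8a and Ms4a1 were at 1 in all libraries.

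In replicates 1 and 2, where Moxd1, Fabp5 and Cxcl14 were high, only the cholangiocyte list exceeded the 9 libraries outside the group in both, at 8.24 and 6.35 TPM against 5 to 5.68 TPM, with 18.3 TPM in replicate 3. Of its 5 markers, 1 lay above those libraries in both replicates, and Krt7 and Cftr were at 1 in all libraries. A sum of 5 TPM for this list means that all 5 markers stood at the floor, so these sums lie near it. Endothelial markers summed to 39.1, 24.8 and 57.2 TPM in s302a Den replicates 1 to 3, against 32.4 to 57.7 TPM outside. Although the sum of replicate 3 lay inside that range, 5 of the 6 endothelial markers were highest in it. The 3 neutrophil markers found of 4 listed summed to 5.70, 7.84 and 19.9 TPM, against 4.04 to 20.3 TPM outside, with Retnlg at 1 in all libraries. All 4 adipocyte markers were at 1 in all libraries. No tested marker was called higher after DEN in s302a, beside 0.421% of all tested genes, a share so low that 0 calls tell little. Not all markers passed the filter: it left 1 of 5 for cholangiocytes, 2 of 5 for cycling cells, 3 of 6 for lymphocytes and 0 of 4 for adipocytes. The part of these cells in the member levels was not tested.

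**Figure D3:**
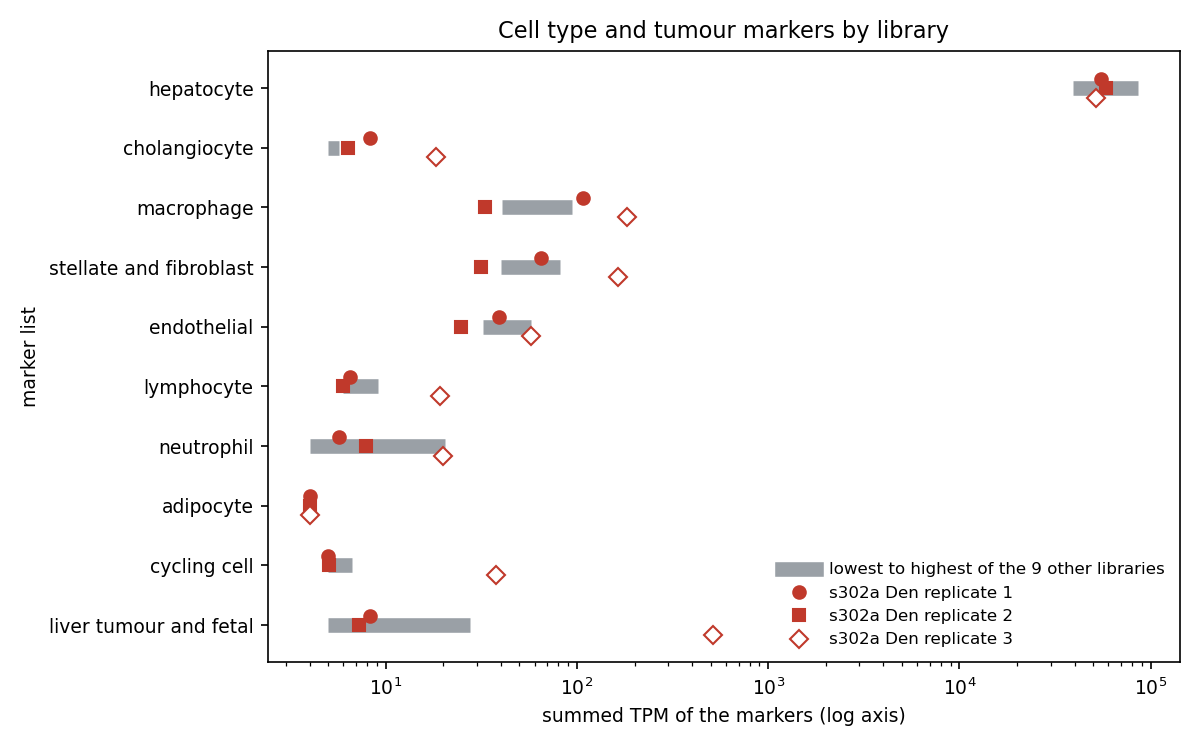
Summed TPM of each marker list on a log axis, where a marker at the floor counts as 1 and libraries are not scaled to each other. Grey bars run from the lowest to the highest of the 9 libraries outside s302a Den and red symbols are the 3 s302a Den libraries. Replicate 3 lies beyond the grey bar for liver tumour and fetal, cycling cell, stellate and fibroblast, macrophage, lymphocyte and cholangiocyte markers, and replicates 1 and 2 both lie above it for cholangiocyte markers alone.

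Of the genes related to the members by function, those reported here did not pass the test after DEN in s302a. The list closest to Fabp5 held other fatty acid- and retinoid-binding proteins and the PPAR receptors, of which 7 of the 16 reported passed the low-value filter. Of these, 4 were higher and 3 lower after DEN in s302a, and limma called 0 (3 at an unadjusted p below 0.05). Their median was 0.05 against 0.27 over all tested genes, and -0.30 without replicate 3.

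Fabp1, the main fatty acid carrier of hepatocytes, had mean levels of 16340 TPM in s302a Ctrl and 8493 TPM in s302a Den, a log2 difference of -1.15 that did not pass (limma adjusted p = 0.209). Its 3 s302a Den libraries stood at 13145, 8948 and 3385 TPM, all under the s302a Ctrl libraries at 17046, 17420 and 14553 TPM. Fabp5 and Fabp1 thus stood on opposite sides of their untreated levels in replicates 1 and 2, while in replicate 3 Fabp1 was lowest and Fabp5 near its untreated level. Ppard, a nuclear receptor that Fabp5 can supply with ligand, had a difference of 1.99 that did not pass (limma adjusted p = 0.109). In wild type its DEN difference was 1.15 (limma adjusted p = 0.609). Ppard stood at 13.2, 2.18 and 19.3 TPM in s302a Den replicates 1 to 3, against at most 1.90 TPM in s302a Ctrl. It thus did not follow Fabp5 across these replicates. Ppara, the main PPAR receptor of hepatocytes, had a difference of -0.55 (limma adjusted p = 0.264).

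Among CXC chemokines and their receptors, 10 of 21 passed the filter, 8 were higher and 2 lower after DEN in s302a, and limma called 0, with 0 at an unadjusted p below 0.05. Their median was 0.70 with all libraries and -0.05 without replicate 3. Cxcl1, a neutrophil attractant, had a difference of 1.45 in s302a (limma adjusted p = 0.367) and a larger one in wild type, 3.03 (limma adjusted p = 0.233), and the difference between the genotypes' DEN differences was -1.58 (limma adjusted p = 0.975). Cxcl9, an interferon-induced T cell attractant, had a difference of 1.17 in s302a (limma adjusted p = 0.353). Of the BTG/TOB family and the CCR4-NOT complex, 15 of 16 passed the filter, 10 were higher and 5 lower, limma called 0 (1 at an unadjusted p below 0.05), and the median moved from 0.22 to -0.05 without replicate 3. Btg2, a p53 target of the same family as Btg3, had a difference of 1.07 (limma adjusted p = 0.183).

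Of the actin nucleation genes, 13 of 23 passed the filter, 11 were higher and 2 lower after DEN in s302a and limma called 0 (1 at an unadjusted p below 0.05), with a median of 0.39 and of -0.05 without replicate 3. The formin gene listed as Diap1 had the smallest p of the list, with a difference of 0.93 (limma adjusted p = 0.187). Of the copper monooxygenase and copper transport genes, 5 of 8 passed the filter, all 5 were higher and limma called 0 (1 at an unadjusted p below 0.05, Atox1), with a median of 0.46 and of -0.02 without replicate 3. Of the centrosome genes, 12 of 18 passed the filter, all 12 were higher and limma called 0 (0 at an unadjusted p below 0.05), with a median of 0.26 and of -0.03 without replicate 3. The closest relative of Cep85, Cep85l, had a difference of 0.68 (limma adjusted p = 0.384), and Nek2, the kinase that Cep85 restrains, one of 0.56 (limma adjusted p = 0.440). The median of all tested genes moved from 0.27 to 0 without replicate 3, as the medians of these lists did. Under median-of-ratios scaling the counts higher and lower became 7 and 5 for the centrosome genes, 3 and 2 for the copper genes, 9 and 4 for actin nucleation, 6 and 9 for BTG/TOB and CCR4-NOT, 7 and 3 for the CXC list and 3 and 4 for the fatty acid- and retinoid-binding list. Under that scaling Ppard (1.73, limma adjusted p = 0.0477) and Diap1 (0.64, limma adjusted p = 0.0304) passed, beside 2.52% of tested genes called higher. Both also passed under quantile normalization, Ppard at 1.71 (limma adjusted p = 0.0458) and Diap1 at 0.60 (limma adjusted p = 0.0289). There 307 of 12120 tested genes were called higher. Ppard also passed without s302a Den replicate 2 (2.80, limma adjusted p = 0.00463), beside 2.49%. In the other 4 comparisons limma called 0 of the reported genes of these lists with all 12 libraries, and 12 of 248 gene tests had an unadjusted p below 0.05. Without replicate 3, and named after their values were seen, Fabp2 (-1.20, limma adjusted p = 0.0291), Cxcl12 (-0.72, limma adjusted p = 0.0327) and Btg1 (-1.13, limma adjusted p = 0.0123) were called lower in s302a than in wild type after DEN. These are 3 of the 60 reported list genes tested in that fit (5%), beside 5.3% of all tested genes.

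**Figure D4:**
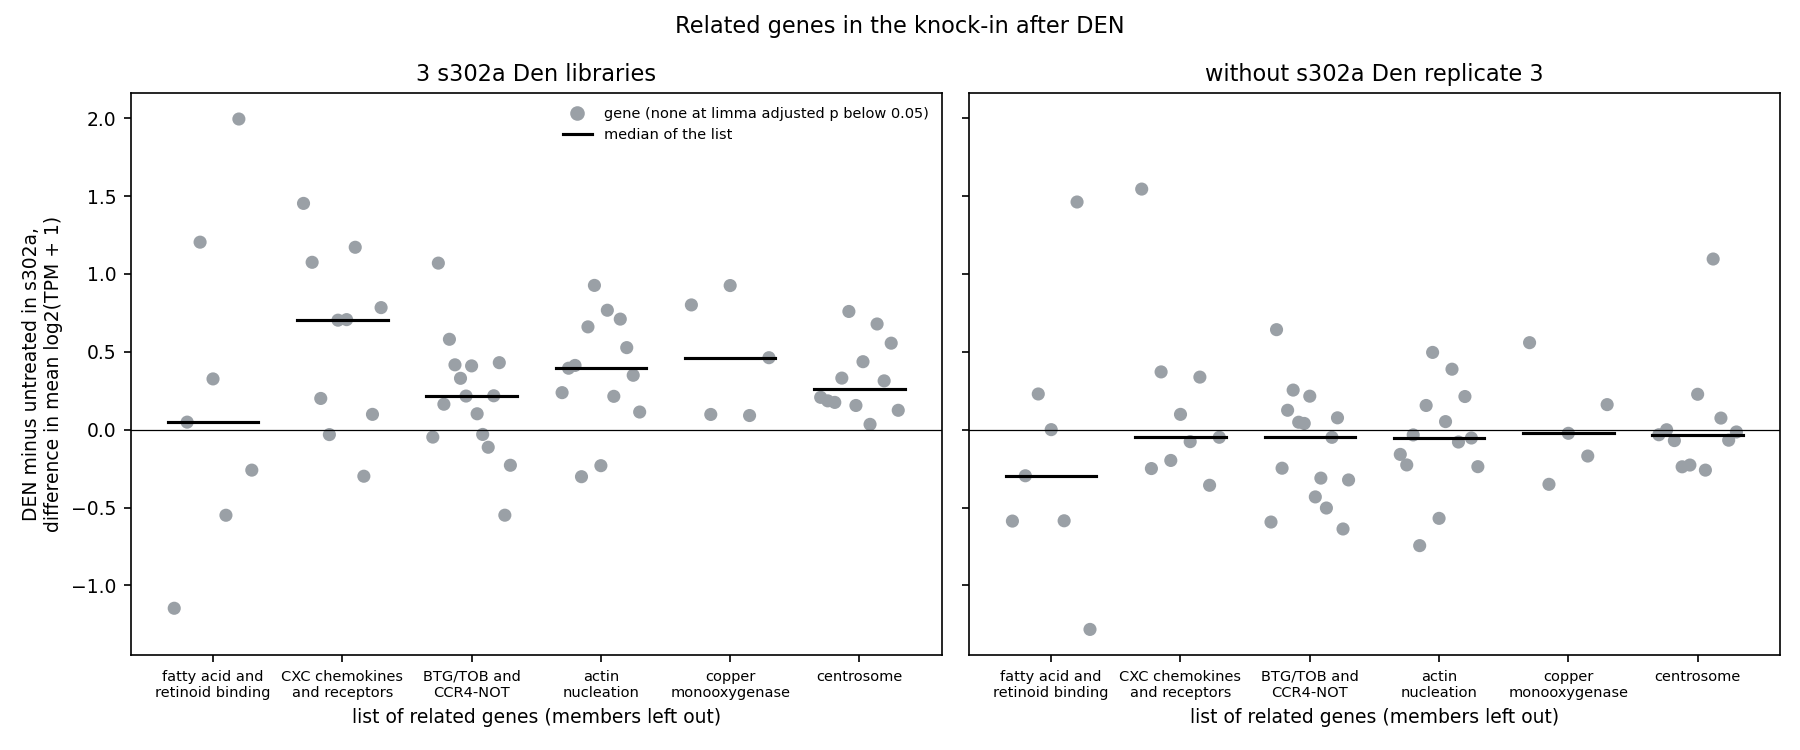
Difference in mean log2(TPM + 1) between s302a Den and s302a Ctrl for each tested gene of 6 lists of related genes, with all libraries (left) and without s302a Den replicate 3 (right); horizontal bars are list medians, and no gene shown passed at a limma adjusted p below 0.05. The list medians on the right lie between -0.30 and -0.02.

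The tested genes most like each member were found by Pearson r of log2(TPM + 1) over the 11 libraries without s302a Den replicate 3. For most members such values rest on the contrast of 2 high libraries with 9 low ones, the libraries are shared between genes, and the values are a description. For Moxd1 the closest were Cyb561 (r = 0.97) and Spp1 (r = 0.95), which encodes osteopontin. Cyb561 encodes an ascorbate-dependent cytochrome that supplies electrons to copper monooxygenases in secretory granules. Its levels were near the floor, at 2.73, 3.27 and 5.66 TPM in s302a Den replicates 1 to 3. A library outside that group reached 2.87 TPM, above replicate 1. Spp1 averaged 22.2, 20.8 and 15.3 TPM in WT Ctrl, WT Den and s302a Ctrl and stood at 59.0, 55.3 and 122 TPM in s302a Den replicates 1 to 3. Unlike Moxd1, both stood highest in replicate 3, and over all 12 libraries their r with Moxd1 was 0.57 and 0.54. For Fabp5 they were Phldb1 (0.97 over 11 libraries, -0.05 over 12) and Gm14204 (0.96 and 0.76). Phldb1 stood just above the floor in s302a Den replicates 1 and 2, at 1.22 and 1.15 TPM, and at 4.32 TPM in replicate 3. For Cxcl14 they were Tmem71 (0.98 and 0.06) and Tmc5 (0.98 and 0.71), both listed at 1 in the other 3 groups. Tmem71 also stood just above the floor in replicates 1 and 2, at 1.30 and 1.16 TPM, with 6.49 TPM in replicate 3, and Tmc5 was at 3.21, 2.11 and 3.54 TPM. The r values of Phldb1 and Tmem71 over 11 libraries rest on these small differences from the floor.

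For Btg3 the closest genes were C8b (0.95), a complement component of hepatocytes, and Atxn1 (0.93), and both fell away with replicate 3 included, at -0.37 and 0.32. C8b stood at 284 and 239 TPM in s302a Den replicates 1 and 2 and at 71.1 TPM in replicate 3, where Btg3 was highest. The values over all 12 libraries stayed closer to those over 11 for the remaining genes. For Cobl the closest were Mettl20 (0.92 and 0.89) and Snord12 (0.91 and 0.87). For Fam124a they were Ica1 (0.97 and 0.84) and Dynll1 (0.94 and 0.90), a dynein light chain at 22.4, 27.2 and 57.6 TPM in s302a Den and at most 14.1 TPM in the other 9 libraries. For Cep85 they were AI506816 (0.90 and 0.91), first in rank over both sets of libraries, and Fkbpl (0.90 and 0.78). AI506816 stood at 242, 130 and 176 TPM in s302a Den and reached 197 TPM outside it.

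For the mean standardised profile of the 7 genes the closest were Gvin1 (0.96 over 11 libraries, 0.94 over 12), Snhg18 (0.95 and 0.45), Phlda2 (0.95 and 0.53), Gm14204 (0.95 and 0.95) and Cgref1 (0.94 and 0.53). Gm14204 stood at 6.97, 6.88 and 6.15 TPM in s302a Den and Gvin1, an interferon-inducible GTPase gene, at 6.44, 5.93 and 6.83 TPM, against at most 2.08 and 2.17 TPM in the other 9 libraries. Both were level across the 3 s302a Den libraries, whereas Snhg18, Phlda2 and Cgref1 were near the floor in replicates 1 and 2, at 1.40 to 2.03 TPM, and at 10.4 to 16.9 TPM in replicate 3.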

How the data were processed

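RNA-seq of total liver RNA from male mice, 12 samples in all, was deposited as 1 table per library. Libraries were prepared with Illumina TruSeq kits and read on a HiSeq instrument, per the labels' protocols. The deposited values are TPM per gene symbol, estimated by the authors with kallisto against mm10, per the submitters' processing notes; the kallisto version, the transcript annotation and the origin of the floor at 1 are not given in the sources used here. TPM keeps no sequencing depth, so the depth behind each value is unknown and no counting interval is given. No 2 of the 12 libraries held identical values.

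Levels were compared over the 4 labelled groups. Symbols with TPM above 1 in at least 3 libraries were kept, transformed to log2(TPM + 1) with a pseudocount of 1, and fitted as 1 linear model of the 4 groups (8 residual degrees of freedom) with limma 3.58.1 in R 4.3.3, using empirical Bayes moderation with a mean trend. Two-sided p-values received the Benjamini-Hochberg adjustment across every tested symbol, with calls at 0.05. A fold change on this scale understates the change of low genes. Folds in TPM are ratios of group means. The code was tested on simulated data.

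The members, the lists of related genes and the marker lists were chosen with earlier results of these data known. A gene of the fatty acid- and retinoid-binding list is not reported here and is left out of that list's counts. Besides the members, the text names the 2 tested genes most like each member and the 5 most like their mean profile, the list genes called in any comparison, and up to 3 genes per list of smallest p for DEN in s302a. Other settings tried were a pseudocount of 0.1 or 0.5, no filter, a stricter filter at 5 TPM, scaling by median of ratios, a replicate block, quantile normalization, fits to the libraries of 1 contrast and leaving out each library. Gene positions are from GENCODE vM21 (GRCm38, the mm10 assembly) and promoter sequences from RefSeq on GRCm38.p6. Python 3.11.15, pandas 2.3.3 and matplotlib 3.10.9 were used for summaries and plots.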

Additional observations from a re-analysis of the deposited data

Results flagged for a closer look

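Cobl was singled out because every s302a Den library lay above every s302a Ctrl library while every WT Den library lay below every WT Ctrl library. The DEN effect in s302a minus the DEN effect in wild type was 1.43 on the log2(TPM + 1) scale. This difference, with a standard error of 0.31, did not pass in the limma fit over all 12 libraries, and it passed without s302a Den replicate 3, at 1.31. Cobl was picked on this pattern, so neither outcome is read as a test of it.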

How the results depend on the processing

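The members kept a higher mean after DEN in s302a in every alternative in which they were tested, and the filter at 5 TPM left 6 of them. The number of members called there was 3 with all libraries (beside 0.421% of tested genes called higher), 1 without a filter (0.171%), 0 in a fit to the libraries of that contrast alone (0.0789%), 6 without s302a Den replicate 3 (1.22%) and 1 to 3 when any other single library was left out (0.0912% to 2.49%). TPM gives no depth, and 3 libraries a group limit the precision.

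Called genes numbered 75 (51 higher, 24 lower) for DEN in s302a, 16 for DEN in wild type, 5 for the interaction, 4 for genotype in untreated livers and 46 (13 higher, 33 lower) for genotype after DEN. Without a filter they were 35, 3, 5, 0 and 28. The untreated comparison then held 211 of 13995 tested genes at an unadjusted limma p below 0.05, fewer than that cut would pass with no difference. Requiring 5 TPM gave 132 for DEN in s302a. Median-of-ratios scaling gave 651 (306 higher, 345 lower) for DEN in s302a, 12 for the interaction and 210 (65 higher, 145 lower) for genotype after DEN. Quantile normalization gave 680 (307 higher, 373 lower), 33 for DEN in wild type, 10 for the interaction and 188 (67 higher, 121 lower) for genotype after DEN. Fits to the libraries of each contrast alone gave 17 for DEN in s302a, 147 for DEN in wild type, 2 for genotype untreated and 4 after DEN. Leaving out 1 library gave 16 to 335 for DEN in s302a, 1 to 258 for DEN in wild type, 2 to 75 for the interaction, 0 to 12 for genotype untreated and 6 to 700 after DEN. The cause of these shifts was not tested.

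Among related genes, the DEN difference in s302a reversed without s302a Den replicate 3 for Nek2 (-0.067) and Pam (-0.023). With 1 library left out, Nek2 ran from -0.067 to 0.87 and Pam from -0.023 to 1.55. Without s302a Den replicate 2, Ppard passed (2.80, limma adjusted p = 0.00463). Ppard and Diap1 also passed under median-of-ratios scaling and under quantile normalization.

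Replicate numbers are shared between the groups, and the labels do not say whether they pair the samples. Each library's deviations from its group means were correlated between groups. The r of same-numbered libraries was above 0.1 in 5 of 18 pairs and ran from -0.19 to 0.28. For differently numbered libraries it ran from -0.23 to 0.26. The 2 ranges are alike, so these values cannot decide whether the numbers pair the samples. With a replicate block the calls were 60 for DEN in s302a, 5 for DEN in wild type, 5 for the interaction, 3 for genotype untreated and 31 after DEN.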
